A study of Mus musculus with 19 samples.

Results

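Tropomyosins are coiled-coil proteins that lie head to tail along actin filaments. The 4 mouse tropomyosin genes, Tpm1, Tpm2, Tpm3 and Tpm4, were followed here by name, as 4 of the 35598 genes in the table of summed counts, together with the 45 transcripts that the annotation gives them. Members were picked for belonging to the family and not by a measured value. The question was how much of each gene was present at each stage of muscle differentiation, and which of its alternative transcripts carried that amount.

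RNA was measured in 19 libraries of primary myoblasts from mouse hind limbs, the precursor cells that fuse into multinucleate myotubes. Each library carried a wild-type label (WT) or a label of Glud1 deficiency (written KO-labelled), Glud1 being a mitochondrial glutamate dehydrogenase, and strain, age and the means of the deficiency are not stated in the labels. Dividing myoblasts kept 24 h in growth medium gave 3 WT and 3 KO-labelled libraries, differentiated myotubes at 48 h gave 3 and 2, and fused myotubes at 72 h gave 4 and 4. The labels call replicates biological without naming animals or cultures, so SDs and p-values describe the spread between these libraries alone.

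Each library held 16168131 to 30742634 estimated counts, and 15123 genes passed the filter on low counts, all 4 members among them. Glud1 RNA did not separate the genotype labels: WT and KO-labelled libraries lay at 184 to 192 and 185 to 190 CPM (counts relative to the scaled library total) in myoblasts, at 102 to 112 and 96.6 to 103 CPM at 48 h, and at 131 to 141 and 130 to 139 CPM at 72 h. The names of the deposited tables carry the letters KO for either label, those of the KO-labelled group having a T besides, so every direction given for a KO-labelled group rests on the labels. The 6 myogenic markers summed to 1790 to 1920 CPM in WT and 1620 to 1700 CPM in KO-labelled myoblasts, without overlap, and to 6090 to 7290 CPM in myotubes, while the endothelial, macrophage, Schwann cell and adipocyte lists summed to at most 2.76 CPM. The smooth muscle list, with the shared gene Des in it, summed to 808 to 896 CPM in WT and 682 to 723 CPM in KO-labelled myoblasts and to 3070 to 5880 CPM in myotubes, and its defining marker Myh11 was at 0 to 1.62 CPM. The 8 fibroblast markers summed to 9.08 to 9.86 CPM in WT and 5.6 to 6.64 CPM in KO-labelled myoblasts, to 1.71 to 2.56 and 1.37 to 1.4 CPM at 48 h, again without overlap, and to 3.07 to 5 CPM at 72 h. In bulk libraries, fewer cells of a type and less RNA per cell cannot be told apart.

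Tropomyosin genes are known for making several proteins from one gene by alternative promoters and mutually exclusive exons, though not every member uses each of these. Transcripts from the upstream promoter start with exon 1a and encode long proteins, and those from the internal promoter start with exon 1b and encode short ones. An exclusive pair in the middle of the gene, 6a and 6b, and the choice of the last coding exon, from 9a to 9d, set further parts of the protein. Tpm1 also has exons 2a and 2b, whose choice was not followed here. Striated muscle is known for forms that start with 1a and end with 9a, which bind troponin on the thin filament, whereas forms that end with 9d are known from the cytoskeletal filaments of non-muscle and smooth muscle cells. Exons were named here by their order in each gene.

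By GENCODE M21 (mouse build GRCm38), Tpm1 (ENSMUSG00000032366.15) lies at chr9:67022590-67049406 on the minus strand and has 21 transcripts. Tpm2 (ENSMUSG00000028464.16) lies at chr4:43514711-43523765 on the minus strand and has 6. Tpm3 (ENSMUSG00000027940.18) lies at chr3:90072649-90100902 on the plus strand and has 16. Tpm4 (ENSMUSG00000031799.9) lies at chr8:72134975-72153142 on the plus strand and has 2. Of the 45 transcripts, 28 are annotated as protein coding, 6 were at 0 in every library, and 17 reached a mean share of 5% of their gene's estimated counts in at least 1 group. Only these 17 are described singly.

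The choice of the last coding exon carries most of what follows, so the 79 coding bases of exons 9a and 9d that can be aligned are shown for each gene, from GRCm38, 5′ to 3′ on the gene's strand. Capitals mark the bases that differ from the other end of the same gene, and for Tpm4, which has no 9a end among its transcripts, the bases that differ from Tpm3 9d.
Tpm1 9a: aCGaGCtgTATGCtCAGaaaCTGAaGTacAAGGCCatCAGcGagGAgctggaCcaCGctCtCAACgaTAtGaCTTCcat
Tpm1 9d: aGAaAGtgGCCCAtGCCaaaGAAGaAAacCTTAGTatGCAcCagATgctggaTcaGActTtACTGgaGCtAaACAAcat
Tpm2 9a: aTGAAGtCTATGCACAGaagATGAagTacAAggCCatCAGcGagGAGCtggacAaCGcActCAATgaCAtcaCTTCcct
Tpm2 9d: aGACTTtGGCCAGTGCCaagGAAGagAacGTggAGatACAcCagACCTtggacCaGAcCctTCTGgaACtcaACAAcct
Tpm3 9a: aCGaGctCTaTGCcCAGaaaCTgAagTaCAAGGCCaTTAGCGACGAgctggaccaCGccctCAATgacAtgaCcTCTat
Tpm3 9d: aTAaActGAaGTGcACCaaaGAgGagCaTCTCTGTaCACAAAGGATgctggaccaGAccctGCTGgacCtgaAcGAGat
Tpm4 9d: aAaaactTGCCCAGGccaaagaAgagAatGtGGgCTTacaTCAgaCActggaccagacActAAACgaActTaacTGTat
These stretches lie at chr9:67029664-67029742 and chr9:67023363-67023441 for Tpm1, at chr4:43515925-43516003 and chr4:43514783-43514861 for Tpm2, at chr3:90091013-90091091 and chr3:90099528-90099606 for Tpm3 and at chr8:72151742-72151820 for Tpm4, each in the last coding exon of its forms. Within a gene the ends shared 43.0% (Tpm1), 41.8% (Tpm2) and 45.6% (Tpm3) of their bases. Between genes the muscle end was more alike than the non-muscle end, with 82.3% to 88.6% identity among the 9a exons and 59.5% to 70.9% among the 9d exons of the 4 genes. In Tpm2 the stretch shown for 9d also lies within the long annotated 9a exon (chr4:43514712-43516003), beyond its stop codon, so a read inside that stretch matches transcripts of both ends.

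The middle pair is shown for Tpm2, where it moved with the end in the transcripts detected. Capitals mark the bases in which 6a (chr4:43519003-43519078) and 6b (chr4:43518644-43518719) differ, at 53.9% identity over 76 bases.
Tpm2 6a: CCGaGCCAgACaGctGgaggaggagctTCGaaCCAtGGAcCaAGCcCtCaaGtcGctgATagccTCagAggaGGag
Tpm2 6b: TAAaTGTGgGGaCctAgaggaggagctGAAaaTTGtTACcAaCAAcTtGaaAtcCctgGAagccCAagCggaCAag
Estimated counts of single transcripts rest on the annotation and on how reads were divided between transcripts. In words of 31 bases, 17 of the 45 transcripts held none of their own, among them Tpm1-203, Tpm1-205, Tpm1-211 and Tpm1-213, so no stretch of that length belonged to them alone and they were told apart by how their exons combine and by their annotated ends. At most 9 such words of a transcript were found in another tropomyosin gene.

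At the level of whole genes, Tpm1 and Tpm2 rose with differentiation, Tpm4 fell almost to nothing and Tpm3 fell and rose again. Levels between genes are given as TPM (an abundance per length, scaled to the same total in every library), summed over a gene's transcripts. In WT myoblasts the order was Tpm1 at 1940 ± 23.7 TPM (SD, n = 3), Tpm2 at 921 ± 26.2, Tpm4 at 835 ± 35.5 and Tpm3 at 631 ± 8.72. No library of a gene overlapped a library of its neighbour in that order, the closest being Tpm2 at 898 to 949 and Tpm4 at 813 to 876 TPM. The Tpm2 sums include 27.9 to 69.7 TPM of Tpm2-206, a transcript annotated as incomplete, so the gap to Tpm4 depends on counting it. Those of Tpm3 include 203 to 239 TPM of the incomplete Tpm3-214. In WT myotubes at 48 h the order was Tpm2 at 6250 ± 296, Tpm1 at 3650 ± 139, Tpm3 at 184 ± 2.65 and Tpm4 at 50.6 ± 5.55 TPM (SD, n = 3). At 72 h it was Tpm2 at 7370 ± 243, Tpm1 at 4040 ± 64.9, Tpm3 at 842 ± 40.2 and Tpm4 at 4.95 ± 2.43 TPM (SD, n = 4). KO-labelled libraries had the same orders, with Tpm4 at 859 ± 79.5 and Tpm2 at 882 ± 23.9 TPM (SD, n = 3) overlapping in myoblasts.

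The whole family went from 4330 ± 70.7 TPM in WT myoblasts (SD, n = 3) to 10100 ± 435 at 48 h (n = 3) and 12300 ± 256 at 72 h (n = 4). Tpm1 gave 44.8%, 36% and 33% of that sum at the 3 stages, and Tpm2 gave 21.3%, 61.7% and 60.1%. Tpm3 gave 14.6%, 1.82% and 6.87%, and Tpm4 gave 19.3%, 0.499% and 0.0406%. The family TPM in KO-labelled libraries was 4250 ± 135 (n = 3), 9930 ± 281 (n = 2) and 11800 ± 219 (n = 4). Tpm1 was thus the largest contributor in myoblasts and Tpm2 in both kinds of myotube.

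**Figure D1:**
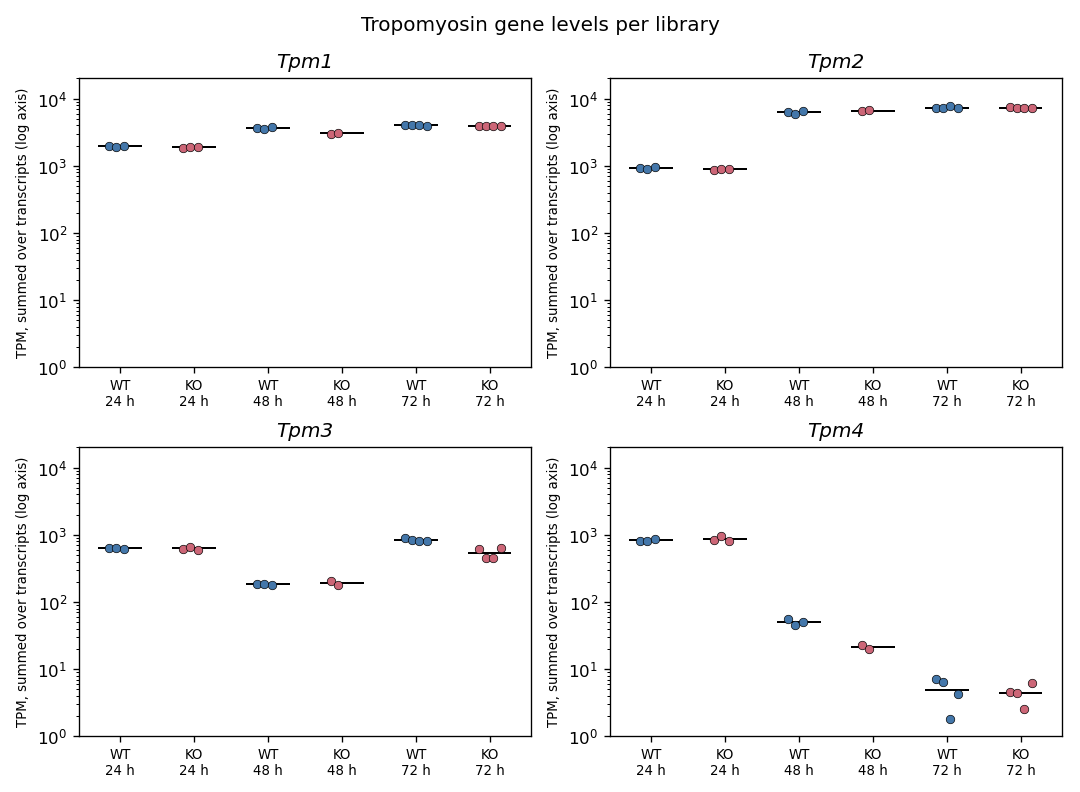
TPM of each tropomyosin gene, summed over its transcripts, in every library on a log axis, with points for libraries, bars for group means, blue for WT and red for KO-labelled. Tpm2 rose to a mean of 7370 TPM in WT fused myotubes while Tpm4 fell to 4.95 TPM, and the 4 KO-labelled 72 h libraries of Tpm3 sat between 452 and 647 TPM, below the 805 to 896 TPM of WT.

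Changes within a gene were tested on estimated counts. Tpm2, known as beta-tropomyosin, was at 581, 547 and 578 CPM in WT myoblasts, at 4400, 4290 and 4720 CPM at 48 h and at 5130, 5360, 5720 and 5450 CPM at 72 h. Every myotube library lay above every myoblast library. The log2 change from 24 h to 48 h was 2.97 ± 0.055 (SE, adjusted p = 1.92e-26 edgeR quasi-likelihood, Benjamini-Hochberg over the 15123 genes tested), and from 48 h to 72 h it was 0.28 ± 0.047 (edgeR adjusted p = 9.2e-06).

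Tpm1, known as alpha-tropomyosin, was at 1470, 1390 and 1450 CPM in WT myoblasts, at 2360, 2270 and 2420 CPM at 48 h and at 2630, 2740, 2770 and 2640 CPM at 72 h. The stages did not overlap. Its log2 change was 0.71 ± 0.042 from 24 h to 48 h (edgeR adjusted p = 6.44e-15) and 0.20 ± 0.039 from 48 h to 72 h (edgeR adjusted p = 5.54e-05).

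Tpm4, whose main transcript encodes a short cytoskeletal tropomyosin, was at 855, 826 and 909 CPM in WT myoblasts, at 64.5, 51.6 and 57.0 CPM at 48 h and at 8.63, 8.06, 2.28 and 5.36 CPM at 72 h, where a library held 37 to 189 of its counts. Each stage lay below the one before without overlap. The log2 change was -3.91 ± 0.126 from 24 h to 48 h (edgeR adjusted p = 6.68e-21) and -3.22 ± 0.169 from 48 h to 72 h (edgeR adjusted p = 1.49e-15). Of the 15123 genes tested, 0.9% fell more than Tpm4 between WT myoblasts and fused myotubes.

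Tpm3, which gives a slow-muscle form and abundant cytoskeletal forms, was at 501, 502 and 502 CPM in WT myoblasts, at 149, 153 and 151 CPM at 48 h and at 428, 403, 408 and 395 CPM at 72 h. The fall and the later rise were both larger than the spread between libraries. The log2 change was -1.73 ± 0.037 from 24 h to 48 h (edgeR adjusted p = 6.21e-25) and 1.44 ± 0.036 from 48 h to 72 h (edgeR adjusted p = 1.36e-22). From 24 h to 72 h it was -0.29 ± 0.033 on counts (edgeR adjusted p = 4.74e-09), while TPM went from 631 to 842. The mean effective length of Tpm3 transcripts, weighted by TPM, went from 1276 to 1296 bases in WT myoblasts to 633 to 664 bases at 72 h, and with an offset for effective length the same change was 0.68 (edgeR adjusted p = 4.61e-07, over alternatives from 1.22e-20 to 2.88e-06). The direction of the net change of Tpm3 therefore depends on whether counts or length-scaled abundances are compared.

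In WT libraries all 4 members were called at an adjusted p under 0.05 in each stage comparison, where 85.0% (48 h against 24 h), 75.1% (72 h against 48 h) and 85.5% (72 h against 24 h) of all genes were called. KO-labelled libraries had 4, 3 and 4 members called, against 83.7%, 70.2% and 87.2% of all genes. The member not called there was Tpm2 from 48 h to 72 h, with a log2 change of 0.08 (edgeR adjusted p = 0.18, over alternatives from 0.0133 to 0.943). It was called with the effective-length offset (0.157) and without KO-labelled 48 h replicate 2 (0.165), and leaving out single libraries gave 0.006 to 0.165. These shares of members are close to those of all genes. The log2 changes in KO-labelled libraries from 24 h to 48 h were 0.57 for Tpm1, 3.22 for Tpm2, -1.74 for Tpm3 and -5.05 for Tpm4. From 48 h to 72 h they were 0.35 for Tpm1, 1.01 for Tpm3 and -2.33 for Tpm4.

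The genes whose log2 CPM followed each member most closely across the 19 libraries, among 8863 genes with a mean of at least 10 CPM, are given as a description, since the libraries share 3 stages. They were Acadl, Cpeb3 and Tmx4 for Tpm1 (Pearson r of 0.9937 to 0.9947), and Casq2, Klhl13 and Inppl1 for Tpm2 (0.9989 to 0.9992). For Tpm4 they were Snai2, Mob1a and Lrrcc1 (0.9929 to 0.9931). For Tpm3 they were Ell2, Pdlim1 and Crybg3 (0.9819 to 0.9905).

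The transcripts of Tpm1, Tpm2 and Tpm3 shifted from the 9d end to the 9a end, each to a different degree. Shares are given as percent of a gene's estimated counts in a library. In Tpm1 the share that ended with 9a was 14.2%, 14.2% and 14.6% in WT myoblasts, 81.9%, 82.1% and 82.6% at 48 h and 95.5%, 94.8%, 94.2% and 94.8% at 72 h. In Tpm3 it was 8.37% ± 0.532 (SD, n = 3), 44.7% ± 1.63 (n = 3) and 75.3% ± 1.24 (n = 4). In Tpm2 it was 29.7% ± 0.786 (n = 3), 63.0% ± 0.823 (n = 3) and 60.4% ± 1.27 (n = 4).

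No WT library of a stage overlapped one of another stage in any of these 3 genes. Tpm1 had the widest span, and Tpm3 was the farthest at 48 h from its share at 72 h, by 30.7 points against 12.6 in Tpm1. Tpm2 was highest at 48 h and kept 33.3% ± 1.17 of its counts on 9d in WT fused myotubes (SD, n = 4). Exact two-sided permutation tests of these shares cannot pass 0.05 with 3 against 3 libraries, where 0.1 is the smallest p, or 3 against 4, where it is 0.0571. Each WT stage comparison of the 3 genes gave the smallest p its design allows, and adjusted over the 27 tests of shares those were 0.169 and 0.154.

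**Figure D2:**
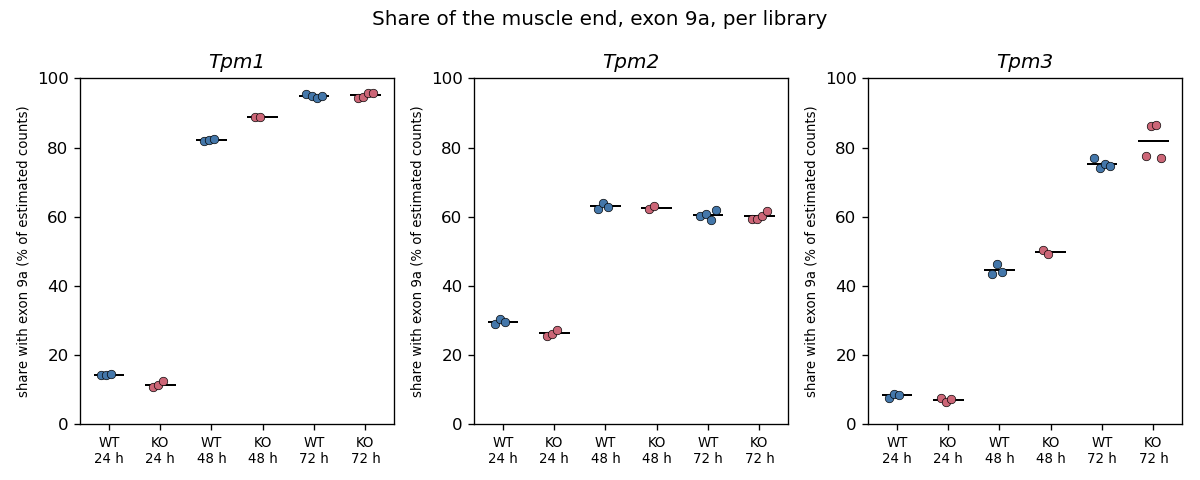
Share of each gene's estimated counts on transcripts that end with exon 9a, per library, with group means as bars, blue for WT and red for KO-labelled. Tpm1 went from 14.3% to 94.8% and Tpm3 from 8.37% to 75.3% in WT means, Tpm2 levelled off near 60.4%, and the KO-labelled 72 h libraries of Tpm3 formed 2 pairs, near 77% and near 86%.

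The test of usage across all genes, which asks whether a group of transcripts changed relative to the rest of its gene, gave calls for the same ends. Transcripts were grouped by their stop codon, a grouping added after seeing the data because the last exons of the Tpm2 forms overlap. Between WT myoblasts and 48 h myotubes, 12 of 17 tropomyosin groups were called, against 8.03% of all groups tested. The 9a group of Tpm1 rose by 2.62 on the log2 scale relative to its gene (diffSpliceDGE in edgeR, adjusted p = 1.16e-36) and its 9d group fell by 2.62 (edgeR adjusted p = 5.1e-36). The 9a group of Tpm2 rose by 1.09 (edgeR adjusted p = 4.57e-15) and its 9d group fell by 1.17. In Tpm3, the long 9a transcript Tpm3-205 rose by 5.37 (edgeR adjusted p = 4.8e-25), the short 9a transcript Tpm3-202 by 2.08, and the 9d group fell by 1.04 (edgeR adjusted p = 7.8e-07). From 48 h to 72 h, 8 of 17 groups were called against 10.2% of all, and the 9d groups of Tpm1 and Tpm3 fell further, by 1.58 and 1.64, while the 9a and 9d groups of Tpm2 were not called. From 24 h to 72 h 12 of 17 were called, against 7.20% of all. With transcripts grouped by overlapping last exons instead, 7, 7 and 9 of 16 groups were called in the 3 comparisons, against 9.30%, 13.9% and 7.54% of all.

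The amount of the ends differs from their share. Summed over the family, transcripts with 9a went from 510 ± 10.3 TPM in WT myoblasts (SD, n = 3) to 5070 ± 187 at 48 h (n = 3) and 6360 ± 60.3 at 72 h (n = 4). Transcripts with 9d were at 3190 ± 43.2, 2820 ± 189 and 3080 ± 159 TPM, with 2940 to 3310 TPM in fused myotubes overlapping the 3140 to 3230 TPM of myoblasts. At 48 h the WT libraries, at 2620 to 3000 TPM, all lay below those of myoblasts. The family's 9d RNA thus changed little next to its 9a RNA, while its makeup changed. In myoblasts it came from all 4 genes, and at 72 h the 9d transcript Tpm2-203 alone was at 2940 TPM in WT, up from 748 TPM in myoblasts.

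Single transcripts of Tpm1 showed which combinations carried the shift. Tpm1-205, the 1a, 6b, 9a form of striated muscle, took 12.8%, 12.8% and 13.2% of Tpm1 counts in WT myoblasts, 68.7%, 68.9% and 70.2% at 48 h and 78.0%, 78.0%, 75.7% and 78.5% at 72 h. Tpm1-213, which combines 1a and 6a with the 9d end, took 45.9%, 46.6% and 46.9% in WT myoblasts and was listed with under 1 count in every myotube library. Counting alone would allow a share of at most 0.00781%, but that leaves out error in dividing reads, and Tpm1-213 has no word of its own. The 3 annotated transcripts with 1a, 6a and 9d together took means of 0.0974% in WT and 0.114% in KO-labelled libraries at 48 h. The largest transcript of myoblasts thus had almost no part in the estimates of myotubes, and Tpm1-205 replaced it as the largest.

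Tpm1-203, a long form that joins 6a to the 9a end, was listed at 0 in every myoblast library and took 10.4% ± 0.412 of WT counts at 48 h (SD, n = 3) and 17.1% ± 0.95 at 72 h (n = 4). Exon 6a as a class went from 46.6% of Tpm1 counts in WT myoblasts to 10.5% at 48 h and 17.2% at 72 h. The exon was thus counted on the 9d form Tpm1-213 in myoblasts and on the 9a form Tpm1-203 in myotubes. The annotated 5′ end of Tpm1-203 lies 51 bases from that of Tpm1-205, so the division of reads between them also rests on those ends.

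Other Tpm1 forms fell. Tpm1-216, with 1a, 6b and 9d, went from 16.5% ± 1.57 in WT myoblasts (SD, n = 3) to 11.7% ± 1.0 at 48 h (n = 3) and 4.07% ± 0.217 at 72 h (n = 4). Tpm1-211, a short 1b form with 9d, took 8.12% to 11.1% in WT myoblasts and was listed at 0 in every myotube library. The internal promoter of Tpm1 as a whole gave 10.1% ± 1.56 of its counts in WT myoblasts, 0.933% ± 0.189 at 48 h and 0.145% ± 0.0383 at 72 h (SD, n = 3, 3 and 4). In the test of first exons, Tpm1 1b fell by 3.44 on the log2 scale relative to its gene from 24 h to 48 h (edgeR adjusted p = 6.81e-25) and by 2.67 from 48 h to 72 h (edgeR adjusted p = 9.05e-20). Of the 15 tropomyosin first-exon groups, 3 and 4 were called in these comparisons, against 4.61% and 6.42% of all groups.

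Tpm1-207, which ends with 9b, went from 5.03% ± 0.671 to 0.823% ± 0.347 between WT myoblasts and fused myotubes (SD, n = 3 and 4). Tpm1-210, which ends with 9c, an end known from brain forms, went from 4.48% ± 0.562 to 0.0272% ± 0.00576. At the level of transcripts, 15 of the 34 tropomyosin transcripts tested changed in usage between WT myoblasts and 48 h myotubes, against 4.07% of all transcripts, 13 between 48 h and 72 h against 4.86%, and 20 between 24 h and 72 h against 5.32%.

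**Figure D3:**
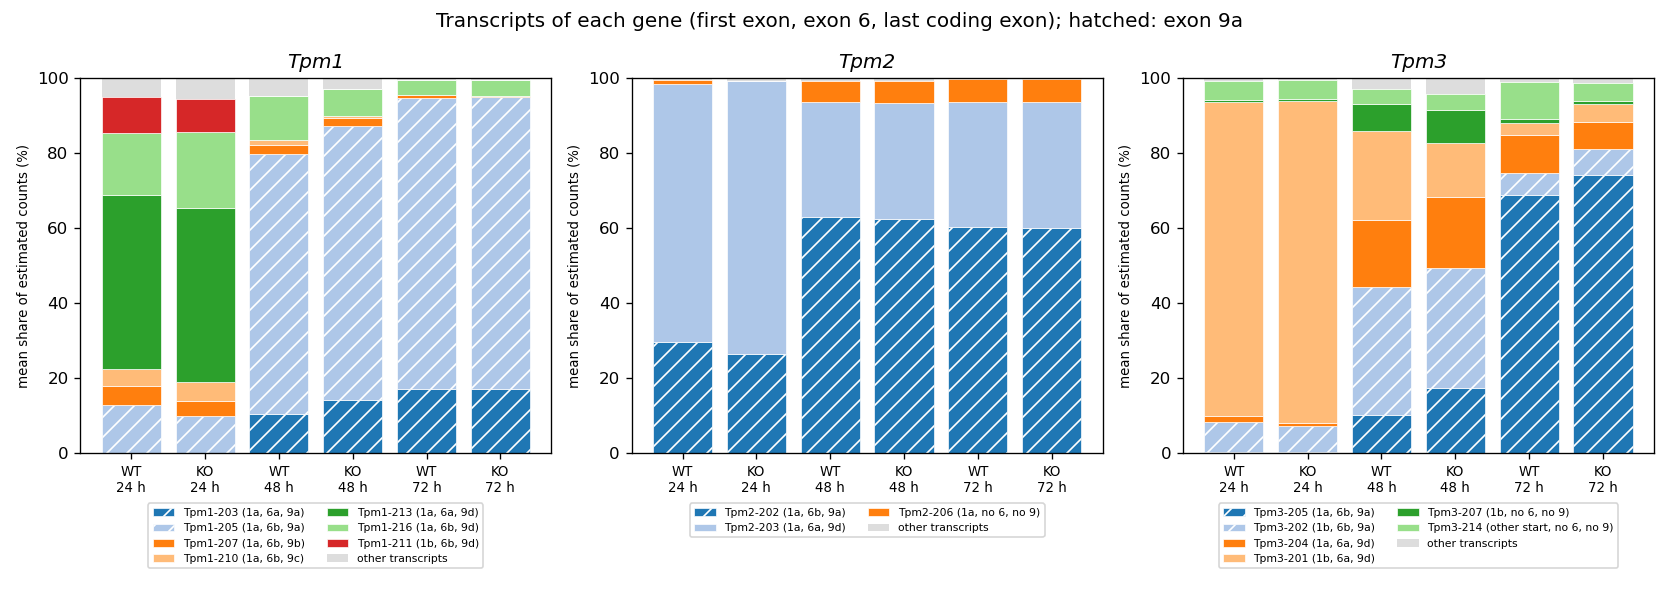
Mean share of each gene's estimated counts taken by its named transcripts in the 6 groups, stacked to 100%, with the first exon, exon 6 and last coding exon in the legend, hatching for transcripts that end with 9a and grey for the remaining transcripts. In Tpm1 the unhatched Tpm1-213 is present in myoblasts alone and the hatched Tpm1-205 fills most of the myotube bars. In Tpm2 the unhatched Tpm2-203 keeps 33.2% at 72 h in WT.

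In Tpm2 both main forms start with 1a, and the middle and last exons were switched together. Tpm2-202 (6b and 9a) took 28.9%, 30.5% and 29.6% of Tpm2 counts in WT myoblasts, 62.4%, 64.0% and 62.7% at 48 h and 60.1%, 60.7%, 59.0% and 62.0% at 72 h. Tpm2-203 (6a and 9d) took 70.2%, 68.0% and 68.6%, then 31.1%, 29.8% and 31.3%, then 33.4%, 33.1%, 34.6% and 31.8%. The 6a with 9a combination of Tpm2-201 was listed at 0 in every library. The shift was a matter of share and not of loss, since Tpm2-203 rose in TPM at each stage, from 748 to 2420 and 2940 TPM in WT means, while Tpm2-202 went from 120 to 1850 and 1960 TPM.

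Per length the order of the Tpm2 ends differs. As a share of TPM, the 9a end of Tpm2 was at 13.1%, 29.6% and 26.6% in WT at the 3 stages, less than its share of counts. Tpm2-202 is annotated with 2098 bases and Tpm2-203 with 1164. A further transcript, Tpm2-206, is annotated as incomplete with 401 bases. It took 5.55% ± 0.249 of Tpm2 counts in WT at 48 h (SD, n = 3) and 6.29% ± 0.162 at 72 h (n = 4). The incomplete transcripts Tpm2-206 and Tpm3-214 together made 22.2% to 22.8% of the family TPM in WT fused myotubes, so sums of TPM carry the annotation of these short fragments.

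Tpm3 changed its promoter as well as its end. The shares that started with 1a were 2.33%, 1.22% and 1.53% in WT myoblasts, 28.4%, 26.3% and 29.5% at 48 h and 79.1%, 79.9%, 78.8% and 78.7% at 72 h. Those from 1b were 92.5% ± 0.762, 65.9% ± 1.73 and 10.2% ± 1.2 (SD, n = 3, 3 and 4). In the test of first exons, Tpm3 1a rose by 4.04 relative to its gene from 24 h to 48 h (edgeR adjusted p = 1.26e-22) and by 1.49 from 48 h to 72 h (edgeR adjusted p = 1.11e-06). Tpm3 1b fell by 2.69 from 48 h to 72 h (edgeR adjusted p = 4.94e-18) and was not called from 24 h to 48 h. Between 24 h and 72 h, 5 of 15 tropomyosin first-exon groups were called, against 5.38% of all.

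The sequences before both Tpm3 starts are shown because the data bear on the choice between them. They are the 250 bases before each start in RefSeq on GRCm38.p6, on the plus strand, with capitals at matches to CANNTG, the E-box motif, searched on both strands.
Tpm3 1a, chr3:90072401-90072650: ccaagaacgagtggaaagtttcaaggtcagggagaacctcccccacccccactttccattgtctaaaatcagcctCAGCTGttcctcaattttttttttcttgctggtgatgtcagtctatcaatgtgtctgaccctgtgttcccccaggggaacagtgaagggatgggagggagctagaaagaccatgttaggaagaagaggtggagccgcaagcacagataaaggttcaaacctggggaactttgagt
Tpm3 1b, chr3:90079271-90079520: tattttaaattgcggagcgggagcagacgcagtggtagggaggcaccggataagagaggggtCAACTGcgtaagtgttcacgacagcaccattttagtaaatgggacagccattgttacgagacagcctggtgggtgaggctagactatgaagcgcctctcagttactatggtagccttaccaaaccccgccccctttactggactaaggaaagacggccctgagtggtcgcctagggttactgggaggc
The 1a window held 1 match, the CAGCTG form, at -175 from the start, and the 1b window 1 match at -188 that was not of this form. CANNTG was found in 66.2% of 32851 promoter windows of the same length, and CAGCTG, which is part of that motif, in 13.0%. The 1a window held 48.8% G and C bases and the 1b window 53.6%. A match describes letters in the window only.

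The Tpm3 transcripts ran through an intermediate stage. Tpm3-201 (1b, 6a, 9d), the short non-muscle form, took 83.9%, 84.0% and 84.1% of Tpm3 counts in WT myoblasts, 23.8%, 22.5% and 24.6% at 48 h and 2.79%, 3.04%, 3.77% and 2.87% at 72 h. Tpm3-202 (1b, 6b, 9a), which joins the internal promoter to the muscle end, took 7.44%, 8.56% and 8.33%, then 34.1%, 35.5% and 32.9%, then 6.81%, 4.47%, 5.95% and 6.43%. Tpm3-205 (1a, 6b, 9a), the long muscle form, took 0.28%, 0.191% and 0.251%, then 8.79%, 10.6% and 10.8%, then 69.5%, 68.9%, 68.9% and 67.9%. At 48 h the short form with the muscle end was the largest of the 3, and at 72 h the long form was.

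The mixed transcript Tpm3-204 (1a, 6a, 9d) went from 1.45% ± 0.536 in WT myoblasts to 18% ± 2.09 at 48 h (SD, n = 3 each) and 10.3% ± 0.701 at 72 h (n = 4). Tpm3-207, a retained intron from 1b, was at 7.24% ± 1.59 at 48 h and at 0.308% ± 0.0668 and 1.01% ± 0.0863 at the other stages. In the usage test Tpm3-202 rose by 2.08 from 24 h to 48 h (edgeR adjusted p = 3.86e-05) and fell by 2.52 from 48 h to 72 h (edgeR adjusted p = 3.21e-08), relative to the other Tpm3 transcripts. Of the Tpm3 counts with the muscle end, those that also started with 1a were 0.241%, 10.1% and 68.8% of the gene in WT, a reading added after seeing the data.

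**Figure D4:**
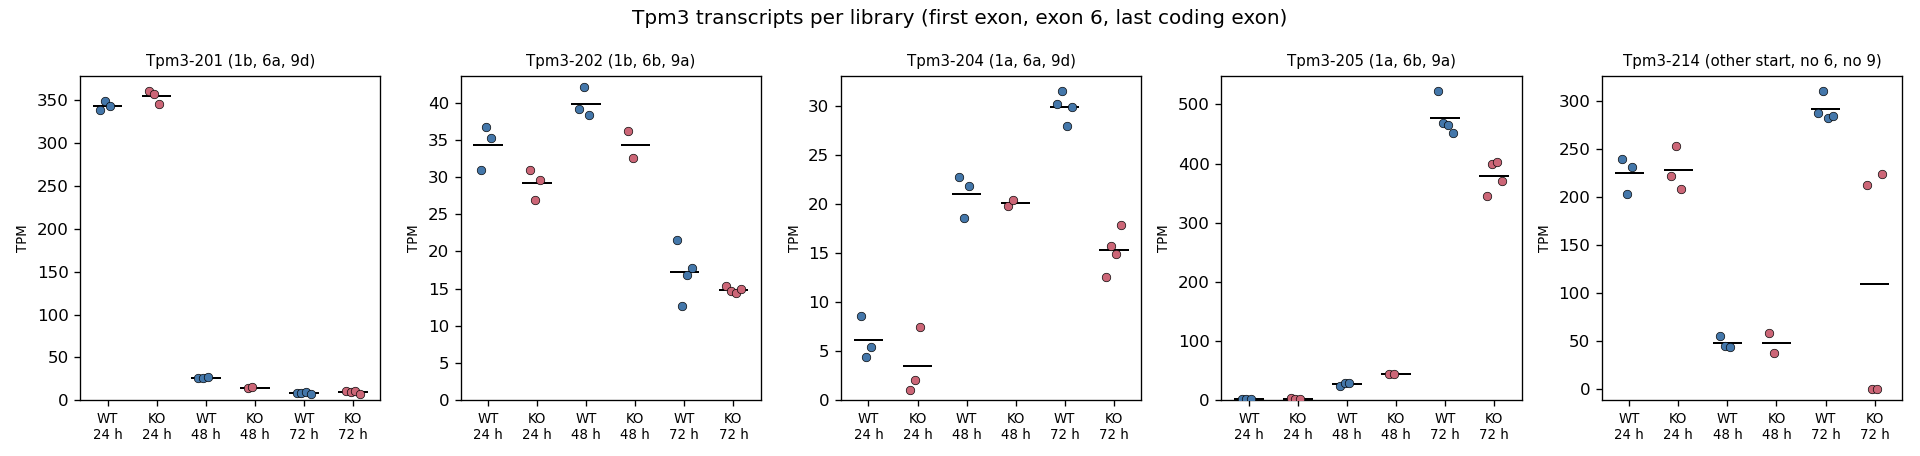
TPM of 5 Tpm3 transcripts in every library, with group means as bars, blue for WT and red for KO-labelled, and the first exon, exon 6 and last coding exon in each panel title. Tpm3-205 reached 451 to 522 TPM in WT and 345 to 403 TPM in KO-labelled fused myotubes, and Tpm3-214 was at 0 in 2 of the 4 KO-labelled 72 h libraries.

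Tpm4 had a single form. Tpm4-201 (1b, 6b, 9d) took 99.9% to 100% of Tpm4 counts as group means, so the fall of the gene was the fall of this short transcript.

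The genotype labels were compared at each stage. In myoblasts 0 of the 4 genes were called by edgeR, against 11.6% of all genes, 0 had an unadjusted p under 0.05, and DESeq2 called 0. The log2 differences, KO-labelled minus WT, were -0.01 ± 0.041 for Tpm1 (edgeR adjusted p = 0.932), -0.03 ± 0.051 for Tpm2 (0.767), 0.02 ± 0.035 for Tpm3 (0.781) and 0.05 ± 0.106 for Tpm4 (0.83). In 48 h myotubes 3 of 4 were called, against 25.2% of all genes, and in 72 h myotubes 1 of 4, against 13.0%.

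Tpm4 differed most at 48 h. The WT libraries were at 64.5, 51.6 and 57.0 CPM, the KO-labelled ones at 28.7 and 25.3. Both KO-labelled libraries lay below all 3 WT libraries. The log2 difference was -1.09 ± 0.166 (SE, edgeR adjusted p = 1.66e-05), and 4.6% of all genes were lower by more. Among the myogenic markers, Mki67 (0.588 to 0.996 against 4.09 to 5.07 CPM in WT) and Pax7 (5.08 to 6.19 against 10.2 to 11.3) were lower in these libraries. Myod1 was too (645 to 668 against 770 to 869), while Des, Myog and Ckm overlapped. The summed fibroblast markers were lower in the same libraries, at 1.37 to 1.4 against 1.71 to 2.56 CPM in WT. Within that sum, Col1a1 (0.133 against 0.619 CPM as means) and Ly6a (0.0262 against 0.503) were lower under the KO label. Pdgfra (0.474 against 0.375), Cd34 (0.617 against 0.461) and Dcn (0.132 against 0.0867) were higher. The part of any of these markers in the label differences at 48 h was not tested. At 72 h the libraries overlapped, at 2.28 to 8.63 CPM in WT and 3.19 to 7.73 CPM in KO-labelled ones, with a log2 difference of -0.21 ± 0.253 (edgeR adjusted p = 0.677).

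Tpm2 at 48 h was at 4400, 4290 and 4720 CPM in WT and 4900 and 5460 CPM in KO-labelled libraries. The groups did not overlap, and the log2 difference was 0.21 ± 0.056 (SE, edgeR adjusted p = 0.00603). Without KO-labelled 48 h replicate 2 it was 0.13 and no longer called (edgeR adjusted p = 0.199, over alternatives from 0.000201 to 0.199).

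Tpm1 at 48 h was at 2360, 2270 and 2420 CPM in WT and 2050 and 2170 CPM in KO-labelled libraries, again without overlap. The log2 difference was -0.15 ± 0.047 (SE, edgeR adjusted p = 0.0164). That call was lost when only the groups compared were fitted (edgeR adjusted p = 0.106), with the effective-length offset (0.0812), without WT 48 h replicate 3 (0.063) and without KO-labelled 48 h replicate 1 (0.219), in a range over alternatives of 0.000364 to 0.219.

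Tpm3 differed at 72 h. The 4 WT libraries were at 428, 403, 408 and 395 CPM, the 4 KO-labelled ones at 298, 308, 306 and 314. Every KO-labelled library lay below every WT library. The log2 difference was -0.41 ± 0.031 (SE, edgeR adjusted p = 2.98e-10), and it was between -0.61 and -0.39 over the alternatives. In TPM the KO-labelled libraries were at 609, 452, 457 and 647 and WT at 805 to 896. The values of 452 and 457 came from replicates 2 and 3, where the incomplete transcript Tpm3-214, described below, was at 0 TPM. It was at 212 and 224 TPM in replicates 1 and 4. At 24 h and 48 h Tpm3 was not called, with 149 to 153 CPM in WT and 152 and 153 CPM in KO-labelled libraries at 48 h.

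**Figure D5:**
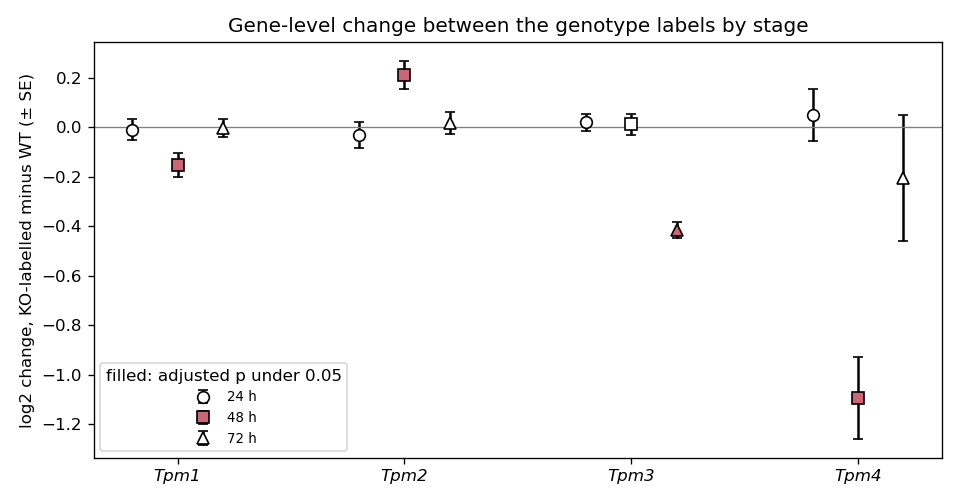
Log2 difference of each tropomyosin gene between KO-labelled and WT libraries at 24 h (circle), 48 h (square) and 72 h (triangle), with SE bars and filled symbols for an edgeR adjusted p under 0.05. Tpm4 at 48 h (-1.09) and Tpm3 at 72 h (-0.41) lie farthest from 0, and no symbol at 24 h is filled.

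Among the Tpm3 transcripts, both 1a forms were lower in TPM in KO-labelled fused myotubes. Tpm3-205 was at 522, 468, 466 and 451 TPM in WT and at 345, 399, 403 and 371 TPM in KO-labelled fused myotubes. Tpm3-204 was at 30.2, 31.5, 27.9 and 29.9 TPM in WT and at 12.6, 15.7, 14.9 and 17.9 TPM in KO-labelled ones. Neither set of libraries overlapped. As shares of Tpm3 counts the transcripts differed in direction, with Tpm3-204 between 9.61% and 11.1% in WT against 6.08% to 8.03% under the KO label, and Tpm3-205 between 67.9% and 69.5% in WT against 69.5% to 79.2%. Relative to the rest of the gene, neither transcript was called for usage at 72 h by edgeR.

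Tpm3-214, annotated as incomplete with 459 bases, set 2 libraries apart. It took 8.95%, 10.6%, 9.62% and 9.95% of Tpm3 counts in WT fused myotubes and 9.92%, 0%, 0% and 9.98% in KO-labelled replicates 1 to 4. By counting alone a 0 would allow at most 0.0541%, which leaves out error in dividing reads. Tpm3-205 took 69.5%, 78.8%, 79.2% and 69.9% in the same KO-labelled libraries. Together the transcripts took 79.4%, 78.8%, 79.2% and 79.8% there and 78.5%, 79.5%, 78.6% and 77.9% in WT, so the estimates of one rose where the other was at 0.

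The share of the muscle end in Tpm3 at 72 h moved with it. It was 77.0%, 74.1%, 75.4% and 74.8% in WT and 77.6%, 86.1%, 86.6% and 77.0% in KO-labelled libraries. The difference of means was 6.49 percentage points, with an exact two-sided permutation p of 0.0286, the smallest that 4 against 4 libraries allow, and 0.154 adjusted over 27 tests. The exact permutation p was 0.114 on shares of TPM and 0.0571 over protein-coding transcripts or with a 1a start required. As a share of the counts with 9a or 9d alone, the muscle end of Tpm3 was at 84.9% ± 0.9 in WT and 87.3% ± 0.341 in KO-labelled fused myotubes (SD, n = 4 each, exact permutation p = 0.0286), a smaller difference. Without the 2 libraries in which Tpm3-214 was at 0 it was 1.99 points (exact permutation p = 0.133, the smallest for 2 against 4). With Tpm3-214 counted as a muscle end in all libraries it was 1.68 points (exact permutation p = 0.0286). Both of these readings were added after seeing the data.

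In 48 h myotubes the muscle end took a larger share in KO-labelled libraries in Tpm1 and Tpm3. In Tpm1 it was 81.9%, 82.1% and 82.6% in WT and 88.8% and 88.9% in KO-labelled libraries. In Tpm3 it was 43.4%, 46.5% and 44.1% in WT and 50.5% and 49.3% in KO-labelled libraries. Neither gene overlapped, with differences of 6.6 and 5.25 points. That of Tpm3 was 4.23 to 8.26 over alternatives, the highest being as a share of the counts with 9a or 9d alone. With 3 against 2 libraries an exact permutation p of 0.2 is the smallest, which both had. In Tpm2 the groups overlapped, at 63.0% ± 0.823 (SD, n = 3) and 62.6% ± 0.575 (n = 2).

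The test of usage across all genes called 2 of 17 tropomyosin stop-codon groups at 48 h, against 0.179% of all groups. The 9d group of Tpm1 had a log2 difference of -0.73 relative to its gene (edgeR adjusted p = 0.00062) and the 9c group one of -0.95 (edgeR adjusted p = 0.0175). As shares of counts, 9d of Tpm1 was at 12.3% ± 1.02 in WT (SD, n = 3) and 7.47% ± 0.276 in KO-labelled libraries (n = 2). First exon 1b of Tpm1 was lower too, with -1.05 (edgeR adjusted p = 6.03e-05), at 0.933% ± 0.189 and 0.447% ± 0.0296 of counts, and was the 1 group called of 15, against 0.0870% of all. Without KO-labelled 48 h replicate 2 the 9d group had an edgeR adjusted p of 0.0512, over alternatives from 4.29e-06 to 0.0512, and without WT replicate 2 or KO-labelled replicate 1 the 9c group had 0.164 and 0.812, over alternatives from 0.014 to 0.812. In limma's diffSplice the call of first exon 1b was lost (adjusted p = 0.544, over alternatives from 4.53e-05 to 0.544). The group of 9a transcripts of Tpm1 that holds Tpm1-203 and Tpm1-205 was not called by edgeR at 48 h and was called by limma's diffSplice (adjusted p = 1.66e-10, over alternatives from 1.66e-10 to 1). In the grouping by overlapping last exons, 2 of 16 were called by edgeR, against 0.186% of all, with the joint 9c and 9d group of Tpm1 at -0.75 (edgeR adjusted p = 2.83e-11) and the end of Tpm1-201 at -0.66 (edgeR adjusted p = 0.00613). Of 34 single transcripts, 0 were called at 48 h by edgeR, against 0.238% of all, where 6 had an unadjusted p under 0.05 and limma's diffSplice called 1.

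In myoblasts the muscle end took a smaller share in KO-labelled libraries in all 3 genes. In Tpm1 it was 14.2%, 14.2% and 14.6% in WT and 10.7%, 11.3% and 12.5% in KO-labelled libraries. In Tpm2 it was 28.9%, 30.5% and 29.6% in WT and 25.5%, 26.2% and 27.2% in KO-labelled ones, and in Tpm3 8.37% ± 0.532 and 7.13% ± 0.489 (SD, n = 3 each). None of the 3 genes overlapped, and each gave an exact two-sided permutation p of 0.1, the smallest possible, which is 0.169 adjusted over 27 tests. On shares of TPM the difference of Tpm2 was -1.39 points, against -3.39 on counts, and that of Tpm3 -0.76, against -1.24. For Tpm3 the difference became 0.04 when a 1a start was also required. The stop-codon groups with 9a or 9d were not called at 24 h by edgeR, while limma's diffSplice called the 9a group of Tpm1 (adjusted p = 0.00515, over alternatives from 0.00515 to 0.607), and the 1 group called of 17, against 0.0656% of all, held the incomplete Tpm2-206. In the grouping by overlapping last exons, 2 of 16 were called, against 0.150% of all, one being Tpm2-206 and the other the joint 9a and 9b group of Tpm1, with a log2 difference of -0.37 (edgeR adjusted p = 0.00155). The summed levels of the myogenic, smooth muscle and fibroblast markers were also lower in KO-labelled myoblasts without overlap, as given above. Des, which the myogenic and smooth muscle lists share, was at 703 to 786 CPM in WT and 578 to 622 CPM in KO-labelled myoblasts. Myog (104 to 119 and 64.6 to 82.5) and Ckm (1.86 to 2.77 and 1.21 to 1.41) were lower too, while Myod1, Pax7 and Mki67 overlapped. Ly6a gave most of the fibroblast sum, at 5.49 to 6.18 CPM in WT and 2.75 to 3.3 CPM in KO-labelled libraries, Pdgfra was at 1.16 and 1.35 CPM as means, and the defining markers Dpt and Tcf21 were at 0 in both. Their part in the shares was not tested.

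Tpm2-206 took 0.589%, 1.18% and 1.47% of Tpm2 counts in WT myoblasts and was listed with under 1 count in all 3 KO-labelled ones. Counting alone would allow at most 0.0174%, which leaves out error in dividing reads. In myotubes it took similar shares in both labels, 5.55% ± 0.249 (SD, n = 3) and 5.83% ± 0.372 (n = 2) at 48 h. It was the 1 transcript of 34 called at 24 h, against 0.265% of all, and the 1 first-exon group of 15, against 0.165%. Its usage test as a transcript had an edgeR adjusted p of 7.11e-27, and the size of the fitted change depends on the prior count and is not given. limma's diffSplice made no call of it at 24 h, neither as a transcript (adjusted p = 1, the highest over its alternatives) nor as a first exon (0.679, from 1.13e-18 to 0.679), nor of its stop-codon group (0.337, from 3.93e-11 to 0.337).

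In fused myotubes Tpm1 and Tpm2 had nearly the same make-up in both labels. The 9a share of Tpm1 was 94.8% ± 0.518 in WT and 95.1% ± 0.771 in KO-labelled libraries (SD, n = 4 each, exact permutation p = 0.543), and that of Tpm2 was 60.4% ± 1.27 and 60.1% ± 1.08 (exact permutation p = 0.771). The 1 stop-codon group called of 17, against 0.188% of all, was Tpm1 9b, with a log2 difference of -1.15 (edgeR adjusted p = 3.67e-05) at 0.94% ± 0.358 and 0.431% ± 0.183 of counts. Its libraries overlapped, lying between 0.454% and 1.3% in WT and between 0.17% and 0.576% under the KO label. The 1 transcript called of 34, against 0.479% of all, was the 9b transcript Tpm1-207 (-1.30, edgeR adjusted p = 0.000194), which limma's diffSplice did not call (adjusted p = 0.232, the highest over its alternatives). By edgeR 0 of 15 first-exon groups were called, against 0.252% of all, and 0 of 16 last-exon groups, against 0.0879%. In each of these, 1 group had an unadjusted p under 0.05 and limma's diffSplice called 1. Its first-exon call was of Tpm3-214 (limma adjusted p = 3.09e-06). By stop codon it also called the Tpm3 group that holds Tpm3-214 (limma adjusted p = 1.03e-05). edgeR called that group only without KO-labelled 72 h replicate 1 (edgeR adjusted p = 0.00524) or 4 (0.0024).

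Whether the label difference itself changed between stages was tested by an interaction term. At gene level 2 of 4 members were called between 24 h and 48 h (Tpm2 and Tpm4), against 19.1% of all genes. Between 48 h and 72 h 1 was called, against 14.8%, and between 24 h and 72 h 1, against 10.3%, Tpm3 in both. In the same order of stages, 1, 0 and 1 of 34 transcripts were called by edgeR, against 0.341%, 0.455% and 0.555% of all, and 2, 0 and 1 of 15 first-exon groups, against 0.174%, 0.174% and 0.275%. For last exons 4, 1 and 1 of 16 were called, against 0.196%, 0.124% and 0.0827%, and for stop codons 3, 1 and 1 of 17, against 0.171%, 0.153% and 0.201%. At the counts of 0, from 48 h to 72 h, 3 transcripts and 1 first-exon group had an unadjusted p under 0.05, and limma's diffSplice called 2 and 2.

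Partners of tropomyosin on the actin filament were described from a list of 30 genes, of which 29 were tested. From WT myoblasts to 48 h myotubes 20 rose and 8 fell, against 42.4% and 42.6% of all genes, with a median log2 change of 3.86 against 0.02 over all genes. The smooth muscle actin Actg2 fell from 3.98 to 0.756 CPM as means, and Tmod4 was not called. The cytoskeletal actins Actb and Actg1 fell, with Actb going from 4700 ± 157 to 603 ± 36.0 CPM (SD, n = 3 each) and Actg1 from 3250 ± 113 to 480 ± 27.6 CPM. Among those that rose, skeletal actin Acta1 went from 437 ± 42.5 to 12200 ± 836 CPM and troponin T3 (Tnnt3) from 61.7 ± 4.99 to 1360 ± 43.3 CPM. Tmod1, which caps the pointed end of thin filaments, went from 8.27 ± 0.687 to 300 ± 11.4 CPM.

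In myoblasts the comparison of labels called 17 of the 29 as lower in KO-labelled libraries and 0 as higher, against 6.69% and 4.86% of all genes. The median of the 29 was -0.37, against 0.01 over all genes. The summed myogenic markers, at 1620 to 1700 CPM against 1790 to 1920 CPM in WT, and the smooth muscle list, at 682 to 723 against 808 to 896 CPM, were lower in the same libraries. Des is in both lists, and the part of these markers in the counts was not tested. Among the 17 lower genes were the cardiac actin gene Actc1 (-0.59), Tmod1 (-0.68), Tnnt3 (-0.46) and Lmod2 (-0.29), while the 4 tropomyosin genes were not called. Acta1 was at 437 ± 42.5 CPM in WT and 255 ± 16 CPM in KO-labelled myoblasts (SD, n = 3 each; log2 difference -0.78 ± 0.072, edgeR adjusted p = 1.62e-08). At 48 h 13 of the 29 were higher and 8 lower, against 11.0% and 14.1% of all genes. The lower ones included Actb (-0.83), Tmod3 (-0.28), the filament-severing cofilin gene Cfl1 (-0.60) and caldesmon, Cald1 (-0.66). The higher ones included Tmod1 (0.28), Lmod2 (0.58) and the muscle cofilin gene Cfl2 (0.33). Actg1 was at 480 ± 27.6 CPM in WT (n = 3) and 223 ± 13.3 CPM in KO-labelled libraries (n = 2), a log2 difference of -1.11 ± 0.056 (edgeR adjusted p = 5.04e-14), close to that of Tpm4. The summed fibroblast markers, at 1.37 to 1.4 against 1.71 to 2.56 CPM, and Mki67, Pax7 and Myod1 were also lower in these libraries, as given above for Tpm4. Their part was not tested. Tnnt3 was higher there by 0.39 ± 0.055 (edgeR adjusted p = 5.59e-06). At 72 h 3 were higher and 9 lower, against 6.32% and 6.72% of all genes, with Tmod4 (-0.59), Actg1 (-0.44) and Actb (-0.28) among the lower.

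Splicing regulators were described from a list of 22, of which 20 were tested. From WT myoblasts to 48 h myotubes 9 rose and 11 fell, against 42.4% and 42.6% of all genes. Ptbp1, a repressor known to act on tropomyosin exons, went from 445 ± 13.2 to 86.0 ± 3.82 CPM (SD, n = 3 each) and to 25.8 ± 1.41 CPM at 72 h (n = 4). Rbm24 went from 61.3 ± 1.44 to 486 ± 8.29 CPM and Rbfox1, a muscle and brain splicing factor, from 2.35 ± 0.0289 to 42.7 ± 3.3 CPM. Between the labels, 5 of the 20 were higher and 2 lower at 24 h, against 4.86% and 6.69% of all genes. At 48 h 2 were higher and 3 lower, against 11.0% and 14.1%, and at 72 h 1 and 4, against 6.32% and 6.72%. At 48 h, where the Tpm1 end differed, Ptbp1 was at 86.0 ± 3.82 CPM in WT (n = 3) and 83.4 ± 2.34 CPM in KO-labelled libraries (n = 2; edgeR adjusted p = 0.607), and Rbfox1 was higher by 0.25 ± 0.068 (edgeR adjusted p = 0.00682). Their part in the choice of exons was not tested.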

How the data were processed

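Total RNA was made into 19 libraries with an Illumina TruSeq mRNA kit, per the labels' protocols. Per the submitters' processing notes, bcl2fastq 2.20, fastp 0.20.0, kallisto 0.46.1, edgeR 3.36 and GRCm38.p6 were used. The authors deposited an estimated count, a TPM value and an effective length for each transcript, per the file headers. Estimated counts divide a read between transcripts that match it. The files give no error of that division, so shares of near-identical transcripts carry more error than their spread shows.

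Of 121843 transcripts, 121018 matched GENCODE M21 and the others, with 0.255% to 0.507% of a library's counts, were left out. Estimated counts were summed per gene and rounded. Whether counting used strand is not stated. Libraries held 16168131 to 30742634 counts, and intervals from counts of 3 or fewer cover counting error only, since PCR copies are not independent molecules.

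Gene-level tests used edgeR 4.0.16 under R 4.3.3 (filterByExpr, TMM scaling, quasi-likelihood test) in 1 fit of 6 groups and 12 comparisons, with calls at a Benjamini-Hochberg adjusted p under 0.05 over 15123 genes. The common biological coefficient of variation was 4.03%. Usage was tested with diffSpliceDGE over all transcripts and over sums by first exon, last exon or stop codon, and its natural-log coefficients were converted to log2. The stop-codon sums, the required 1a start and both readings of Tpm3-214 were chosen after seeing the data. Shares were compared by exact two-sided permutation tests, the p being 2 times the smaller tail. Exon sequences were read from the GENCODE M21 transcripts (GRCm38) and promoters from the RefSeq table. Alternatives were other scalings, filters, DESeq2 1.42.0, limma 3.58.1, an effective-length offset, a replicate block, other definitions of the muscle end and leaving out each library.

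On simulated counts for the 72 h label comparison over 15077 genes, the gene test recovered 74% of 50 genes changed by 1.25-fold and 92% of 50 changed by 1.5-fold. Over 20364 first-exon groups, the usage test recovered 37% of 100 changed by 1.5-fold and 56% of 100 changed by 2-fold. Within each test every simulated feature had the same fixed dispersion, and no error of dividing reads between transcripts was simulated. Calls among unchanged features are not given.

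Transcripts were named at a mean share of at least 5% in 1 group, and similar genes by Pearson r over log2 CPM. Members, lists and tests were chosen with earlier results of these data known. The lists were actin filament partners, splicing regulators and markers of cell types.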

Additional observations from a re-analysis of the deposited data

Results flagged for a closer look

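Several differences between the labels (KO-labelled minus WT) changed from stage to stage by edgeR's test of that change, an interaction term with Benjamini-Hochberg adjustment. At gene level, that of Tpm4 changed by -1.14 ± 0.198 log2 units (SE) from 24 h to 48 h (edgeR adjusted p = 0.000126, over alternatives from 5.19e-42 to 0.0923), and DESeq2 gave the value of 0.0923. That of Tpm2 changed by 0.24 ± 0.076 from 24 h to 48 h (edgeR adjusted p = 0.0247, over alternatives from 0.00116 to 0.224). Its call was lost without WT 24 h replicate 1 or 3, WT 48 h replicate 2, KO-labelled 24 h replicate 1 or KO-labelled 48 h replicate 2, the last of which gave 0.16. That of Tpm3 changed by -0.43 ± 0.053 from 48 h to 72 h (edgeR adjusted p = 2.35e-06) and by -0.44 ± 0.047 from 24 h to 72 h (edgeR adjusted p = 4.9e-07), and these calls held in each alternative run.

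In usage, on the log2 scale relative to the gene, the label difference of the internal promoter of Tpm1 (exon 1b) changed by -0.99 from 24 h to 48 h (edgeR adjusted p = 0.0102). Its call was lost when any of 6 single libraries was left out and in limma's diffSplice. By stop codon, the 9d group of Tpm1 changed by -0.78 from 24 h to 48 h and by 0.80 from 48 h to 72 h, and its 9c group by -1.18 from 24 h to 48 h. Each of these lost its call without at least 1 library, KO-labelled 48 h replicate 1 for both changes from 24 h and KO-labelled 48 h replicate 2 for the later change of 9d. By overlapping last exons, the joint 9c and 9d group of Tpm1 changed by -0.82 from 24 h to 48 h and by 0.82 from 48 h to 72 h. From 24 h to 48 h the joint 9a and 9b group changed by 0.49 and the end of Tpm1-201 by -0.90.

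The incomplete transcript Tpm2-206, listed with under 1 count in all 3 KO-labelled myoblast libraries, gave fitted changes of 10.23 from 24 h to 48 h and 10.155 from 24 h to 72 h as a transcript, 10.22 and 10.144 as a first exon and 10.242 and 10.166 as a last exon. Its stop-codon group, shared with Tpm2-204 and Tpm2-205, gave 1.30 and 1.23. limma's diffSplice called none of these 8 changes, with adjusted p-values of 0.396 and 0.495 for the stop-codon group and 0.704 and 0.749 for the first exon, each the highest over its alternatives. The sizes for the transcript alone depend on the prior count and are no measure of a fold. Levels and shares of the members were also examined in 42 sets of 4 libraries for a library far from the others, which chance gives about 1 time in 20, and 0 were found.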

How the results depend on the processing

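The stage changes of Tpm1, Tpm2 and Tpm4 kept their direction and call in every alternative within WT libraries, and the Tpm3 difference between labels at 72 h kept both (-0.61 to -0.39). With the effective-length offset, Tpm3 from 24 h to 72 h was 0.677 in WT and 0.053 in KO-labelled libraries, against falls on counts. The TPM-weighted effective length of Tpm3 at 72 h was 633 to 664 bases in WT and 639, 875, 874 and 652 in KO-labelled replicates 1 to 4. Replicates 2 and 3 were those with Tpm3-214 at 0. The part of that transcript in the value of 0.053 was not tested. The Tpm3 muscle-end difference at 72 h no longer had a p under 0.05 as a share of TPM (16.7 points, exact permutation p = 0.114), over protein-coding transcripts (6.48, p = 0.0571) and with a 1a start (5.51, p = 0.0571), all with 4 against 4 libraries, and was 1.99 without the 2 libraries lacking Tpm3-214 and 4.9 to 8.08 leaving out single libraries, where fewer libraries limit the p. For the difference of label effects between 48 h and 72 h, 3 members were called with library size only, 2 with no filter, 2 with a mean CPM of at least 1 and 3 with DESeq2, which called 1 between 24 h and 48 h. Leaving out single libraries gave 1 to 3 and 1 to 2 members there. The replicate numbers do not pair the libraries, since deviations of same-numbered libraries correlated at -0.054 to 0.056 over 41 pairs. With a replicate block 3 members were called between the effects at 48 h and 72 h, and in last exons 2 between the effects at 24 h and 72 h and 1 between labels at 72 h. Tpm transcripts at a 5% share filter gave fewer calls, 13, 7, 13 and 6 for 72 h against 24 h and against 48 h in WT and in KO-labelled libraries, where fewer were tested. limma's diffSplice called other numbers of Tpm groups. The shares of all features called are not given for any of these alternatives, so such counts do not set the members against other genes. For first exons it called 0 and 0 between labels at 24 h and 48 h, 1 at 72 h, 9 and 8 for WT 48 h and 72 h against 24 h, 7 for KO-labelled 48 h against 24 h, and 0 and 2 for effects (48 h against 24 h, 72 h against 48 h). For last exons it called 11 and 9 for 48 h against 24 h in WT and KO-labelled libraries, 1 between labels at 72 h, and 2 and 4 for effects (72 h against 24 h and against 48 h). For stop codons it called 2 between labels at 72 h and 3 for effects (72 h against 48 h), and for transcripts 2 and 1 between labels at 24 h and 48 h and 3 and 2 for effects (48 h against 24 h, 72 h against 48 h). It reversed 6 Tpm3 usage values: Tpm3-214 from 48 h to 72 h in KO-labelled libraries (-4.189 as a first exon, -3.825 as a transcript), the joint 9a and 9d last exon (1.738, effects at 72 h against 24 h), the groups without a known end from 48 h to 72 h in WT (0.684 by last exon, 0.655 by stop codon) and Tpm3-202 from 24 h to 72 h in WT (0.971). Leaving out single libraries moved counts of usage calls by 1 or 2, apart from transcripts from 48 h to 72 h in KO-labelled libraries (10 to 13 against 13): first exons 1 to 2 (effects, 48 h against 24 h); last exons 1 to 2 (labels, 48 h), 0 to 1 (labels, 72 h), 1 to 3 and 1 to 2 (effects, 72 h against 24 h and 48 h); stop codons 1 to 2 (labels, 48 h and 72 h), 1 to 3, 1 to 2 and 0 to 2 (effects, 48 h against 24 h, 72 h against 24 h and 48 h). Fused myotubes held 37 to 189 Tpm4 counts per library, which limits that comparison.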
